A study of Mus musculus with 55 samples.

Results

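Wild-type (WT) mice of the study came from 2 kinds of breeding pair, and the dorsal hippocampal transcriptomes of these WT mice were compared by breeding. The Cnih3 x B6 mice came from matings with at least 1 parent of the Cnih3 line and did not inherit the mutation. The sources used here differ on whether 1 or both of their parents carried it. The B6 x B6 mice came from matings of 2 WT B6 mice. Of the 55 mice of the series, 24 entered the comparison: 8 WT mice of Cnih3 x B6 breeding (13_1, 1949, 2015, 2018, 2052, 8_1, 8_2 and 8_3) and 16 WT mice of B6 x B6 breeding. The other WT mice, 548, 549 and 569, and the 28 Cnih3 knock-out (KO) mice entered no fit except the alternatives that name them. They also entered the gene filter, the scaling of the levels shown, and the descriptive counts and figure that name them. The rule used only the breeding, never a measured value.

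Each library was made from the dorsal hippocampus of 1 mouse. The Cnih3 x B6 mice were 4 males and 1 female each in metestrus, diestrus, proestrus and estrus, and the B6 x B6 mice were 1 male (19_1) and 3, 2, 4 and 6 females in these stages. Stage group was therefore a covariate throughout. Each female stage set 1 Cnih3 x B6 mouse against several B6 x B6 mice, and all 4 Cnih3 x B6 males were set against 1 B6 x B6 male. The mice were adults on a C57/BL6j background. Age ran from 13 to 23.71 weeks in the Cnih3 x B6 mice (median 19.3) and from 12 to 19.43 weeks in the B6 x B6 mice (median 16.8). Of the 8 Cnih3 x B6 mice, 3 share the first part of their number (8_1, 8_2 and 8_3), and what that part marks is not stated in the sources used here. They are the only Cnih3 x B6 mice in diestrus, proestrus and estrus. A fit without them compares breeding only in metestrus, with 13_1 alone, and in males, against 19_1 alone. The fit on mice of 14 weeks or more leaves out both 13_1 and 19_1. It compares breeding only through 8_1, 8_2 and 8_3, in diestrus, proestrus and estrus. A lost call or a turned sign in either fit can therefore come from the design left over. The Cnih3 KO line was made from mice of the BL/6N substrain and then backcrossed to C57/BL6j over many generations.

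Cnih3 encodes cornichon family AMPA receptor auxiliary protein 3, which binds AMPA-type glutamate receptors and slows their closing, and it is expressed in the hippocampus. In a backcrossed line, most of the genome comes from the recipient strain, and a segment from the donor strain can persist around a mutation or elsewhere until it is lost by recombination or segregation. The C57BL/6J and C57BL/6N substrains are known to differ at a limited number of genes, and Wdfy1, Nnt and Gabra2 are among those whose expression is known to differ between them.

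Total counts ran from 41339048 to 57073939 in the Cnih3 x B6 libraries and from 25881295 to 63321180 in the B6 x B6 libraries. Of 7 library measures (age, total counts, mitochondrial and pseudogene share of counts, and 3 principal components) compared by exact permutation of breeding within stage (two-sided, 2100 arrangements, smallest p possible 0.000476), none passed after adjustment. The share of counts on pseudogenes, a measure added after the data were seen, had the smallest p (stage-adjusted difference 0.206 percentage points higher in Cnih3 x B6 mice, exact p = 0.0195, adjusted p = 0.136). Library 8_2 stood apart, with the lowest quality weight in the fit (0.208), the highest mitochondrial share of counts (5.24%) and the lowest median correlation with the other libraries (0.963). The next lowest quality weight was that of the sole B6 x B6 male, 19_1 (0.313).

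Of 16168 genes, 10 (0.0619%) were differentially expressed by breeding at a false discovery rate (FDR) under 0.05, and these 10 differentially expressed genes (DEGs) are named here one by one. In Cnih3 x B6 mice 7 were higher (0.0433% of the genes tested) and 3 lower (0.0186%). At an unadjusted p under 0.05 the count was 1178 genes (7.29%). With single mice left out that count ran from 579, without 1 diestrus B6 x B6 female, to 2865 without 8_3, and it was 2324 without 8_1. The DEGs higher in Cnih3 x B6 mice were Alpk1, Wdfy1, Capza1-ps1, Hipk1, Sycp1, Ndn and Slamf9, and those lower were G530011O06Rik, Capza1 and Palmd. The edgeR quasi-likelihood test called 7 genes, all of them among the 10, and did not call Capza1, Palmd (FDR = 0.122 each) or Slamf9 (FDR = 0.388). The count was 8 to 49 with single mice left out, 49 being the count without 8_3.

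**Figure D1:**
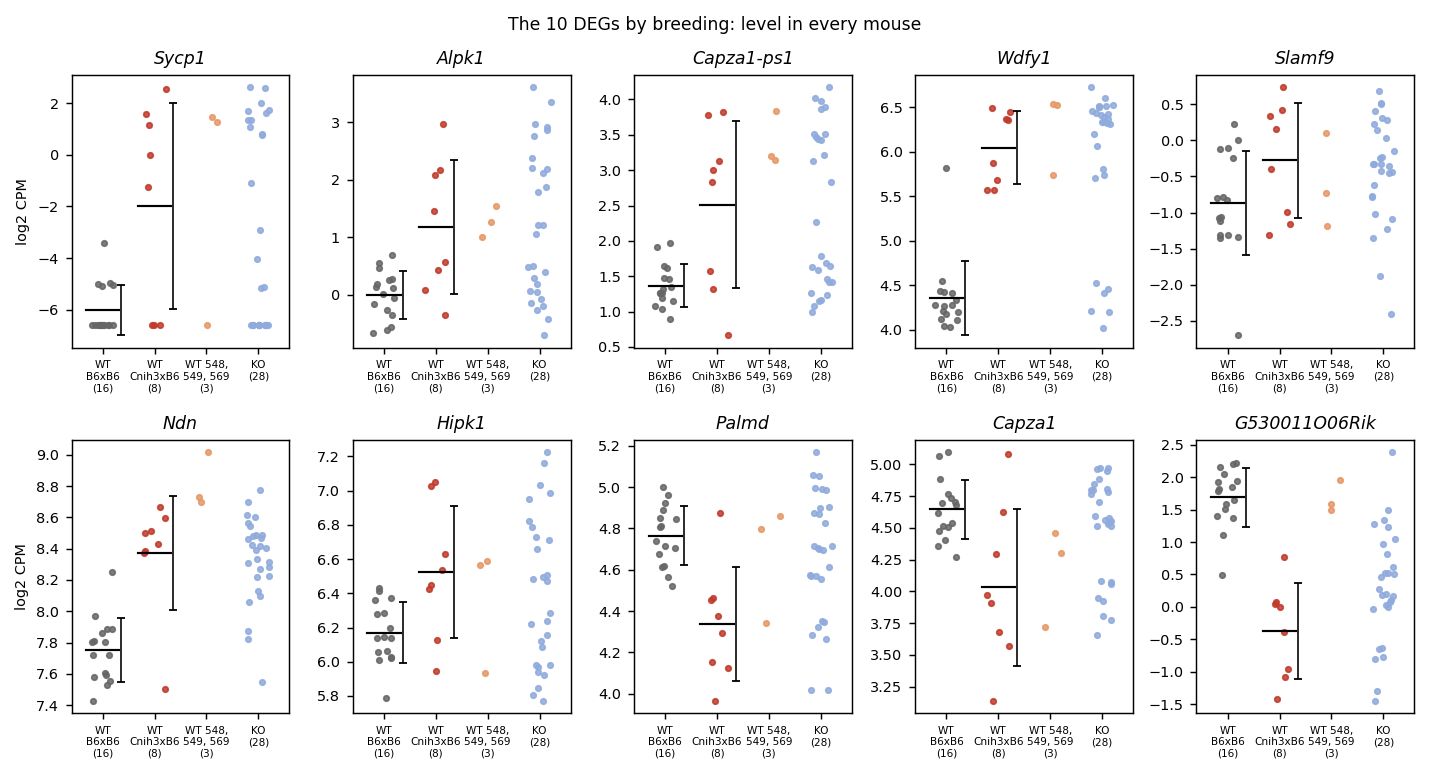
Level of each DEG in every mouse (log2 CPM, where CPM is the gene's counts scaled to a common library size), with WT mice of B6 x B6 breeding in grey, WT mice of Cnih3 x B6 breeding in red, WT mice 548, 549 and 569 in orange and KO mice in blue; bars are the mean and SD of the 2 groups compared. In Sycp1 and Capza1-ps1 the Cnih3 x B6 mice split into 5 high and 3 low mice, and in Wdfy1 a single B6 x B6 mouse lay among the Cnih3 x B6 mice.

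Of the 10 DEGs, 5 (Sycp1, Hipk1, Capza1, Palmd and Alpk1) lie on chromosome 3, with starts within 24.85 Mb of each other. Sycp1 (GRCm38, chromosome 3, 102818499 to 102936100, minus strand) encodes a protein of the synaptonemal complex, which joins homologous chromosomes in meiosis. Its counts in the Cnih3 x B6 mice were 293 in 8_3, 121 in 13_1, 113 in 2018, 43 in 8_1, 16 in 2015, and 0 in 1949, 2052 and 8_2. In the B6 x B6 mice 11 of 16 libraries had 0 counts and the highest had 4. So 5 Cnih3 x B6 mice lay above every B6 x B6 mouse, and the other 3 had none. Pooled over libraries, 586 counts in 388302350 stood against 8 in 798933726, a 151-fold ratio (exact 95% interval 76 to 351, counting error only), and the fitted log2 fold change (FC) was 6.60 ± 0.89 (SE, FDR = 0.000186). Sycp1 did not pass in limma without quality weights (FDR = 0.0729), in mice of 14 weeks or more (FDR = 0.181) or without 8_1, 8_2 and 8_3 (FDR = 0.172). Annotated genes overlap Sycp1 on the opposite strand, and the library kit does not mark strand, so reads of both strands cannot be told apart.

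Alpk1 (chromosome 3, 127670310 to 127780527, minus strand) encodes a kinase that senses bacterial sugar metabolites and signals through the adaptor Tifa. Its level was 7.83 CPM in 8_3, 4.47 in 8_1, 4.22 in 13_1, 2.72 in 2015, 1.47 in 8_2, 1.34 in 2018, 1.05 in 2052 and 0.775 in 1949. The B6 x B6 mice ran from 0.615 to 1.60 CPM (median 1.03). The highest 4 Cnih3 x B6 mice lay above every B6 x B6 mouse and the other 4 within their range. The log2 FC was 2.15 ± 0.24 (FDR = 2.00e-05). Over the 16168 genes tested, exactly 4 of the 8 lay above all 16 in 73 genes, and 5 or more in 0.118% of genes. Tifa, whose gene starts just beyond Alpk1, was 0.51 ± 0.15 higher on the log2 scale without passing (FDR = 0.453), and it is named because of its neighbour's values. Alpk1 no longer passed without 8_1, 8_2 and 8_3 (log2 FC 1.55, FDR = 0.172) or with the KO mice of every stage in the same fit, 52 mice in all (FDR = 0.167).

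Hipk1 (chromosome 3, 103739815 to 103791563, minus strand) encodes a nuclear kinase that acts on homeodomain transcription factors and p53. It was at 132.8 CPM in 13_1, 130.3 in 8_3, 99.1 in 8_1, 92.9 in 2018, 87.2 in 2052, 85.8 in 2015, 69.9 in 1949 and 61.7 in 8_2. The B6 x B6 mice ran from 55.2 to 86.1 CPM (median 70.5), so 5 of 8 Cnih3 x B6 mice lay above all of them. The log2 FC of Hipk1 was 0.66 ± 0.08 (FDR = 7.98e-05). Its call was lost in limma without quality weights (FDR = 0.0729), with 52 mice in the fit (FDR = 0.159) and in mice of 14 weeks or more (FDR = 0.0945).

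Palmd (chromosome 3, 116918258 to 116968987, minus strand) encodes palmdelphin, a protein of the paralemmin family that associates with membranes and the cytoskeleton. It was at 15.6 CPM in 8_3, 17.4 in 13_1, 17.8 in 2015, 19.6 in 2018, 20.8 in 8_2, 21.9 in 2052, 22.03 in 8_1 and 29.3 in 1949. The B6 x B6 mice ran from 22.98 to 31.98 CPM (median 27.3), so 7 of 8 Cnih3 x B6 mice lay below all of them. Over the genes tested, 5 or more of the 8 lay below all 16 in 0.254% of genes and above all 16 in 0.118%. Palmd had a log2 FC of -0.58 ± 0.11 (FDR = 0.0178). The call was lost without 13_1 (FDR = 0.116) and without 19_1 (FDR = 0.0609), at log2 FCs between -0.66 and -0.55 over all 24 such fits.

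Capza1 and its pseudogene Capza1-ps1 are near copies on different chromosomes, and they moved in opposite directions. Capza1 (chromosome 3, 104822779 to 104864505, minus strand) encodes the alpha-1 subunit of the capping protein that closes the growing ends of actin filaments. Capza1-ps1 (chromosome 1, 105455971 to 105458829, plus strand) is an intronless copy of its messenger RNA. In the GENCODE transcripts, 2846 of 2854 aligned bases (99.7%) were the same in both, and the 861-base coding sequence of Capza1 held 3 differences over 860 aligned bases. The window below is shown because it holds one of these differences, and it shows how little sequence separates reads of the gene from reads of its copy. It covers bases 484 to 543 of the Capza1 coding sequence and bases 496 to 555 of the Capza1-ps1 transcript, with the differing base in capitals:
Capza1: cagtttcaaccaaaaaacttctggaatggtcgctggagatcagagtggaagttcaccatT
Capza1-ps1: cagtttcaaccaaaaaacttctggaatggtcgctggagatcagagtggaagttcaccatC
The counts hold uniquely aligned reads, so a read that covers no difference should count for neither gene, and both levels are uncertain for that reason.

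Capza1-ps1 was at 14.1 CPM in 8_3, 13.7 in 13_1, 8.75 in 8_1, 7.97 in 2018, 7.08 in 2015, 2.97 in 1949, 2.49 in 2052 and 1.57 in 8_2, against 1.84 to 3.92 CPM (median 2.44) in the B6 x B6 mice. Capza1 was at 8.80 CPM in 8_2, 11.8 in 8_3, 12.8 in 13_1, 15.0 in 2018, 15.6 in 2015, 19.6 in 8_1, 24.6 in 2052 and 33.8 in 1949, against 19.2 to 34.2 CPM (median 25.03). The 5 mice with high Capza1-ps1 were those with Sycp1 counts, and 4 of them had less Capza1 than any B6 x B6 mouse. The log2 FC was 2.01 ± 0.24 for Capza1-ps1 (FDR = 3.75e-05) and -0.86 ± 0.15 for Capza1 (FDR = 0.00840).

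The summed level of the gene and its copy had a median of 26.2 CPM in Cnih3 x B6 mice (range 10.4 to 36.8) and of 27.3 CPM in B6 x B6 mice (range 21.7 to 37.9). The copy made up 54.3% of this sum in 8_3, 51.7% in 13_1, 34.7% in 2018, 31.2% in 2015 and 30.9% in 8_1, against 7.19% to 12.9% in the B6 x B6 mice. In 8_2 the sum itself was low, at 10.4 CPM, with 15.2% from the copy. Capza1 no longer passed without 13_1 (log2 FC -0.80, FDR = 0.0836), and the share of pseudogene counts in the library as a covariate also ended its call (FDR = 0.161) but not that of Capza1-ps1 (FDR = 0.0134). Capza1-ps1 in turn did not pass in limma without quality weights (FDR = 0.102), with 52 mice in the fit (FDR = 0.0525) or without 8_1, 8_2 and 8_3 (FDR = 0.0591).

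**Figure D2:**
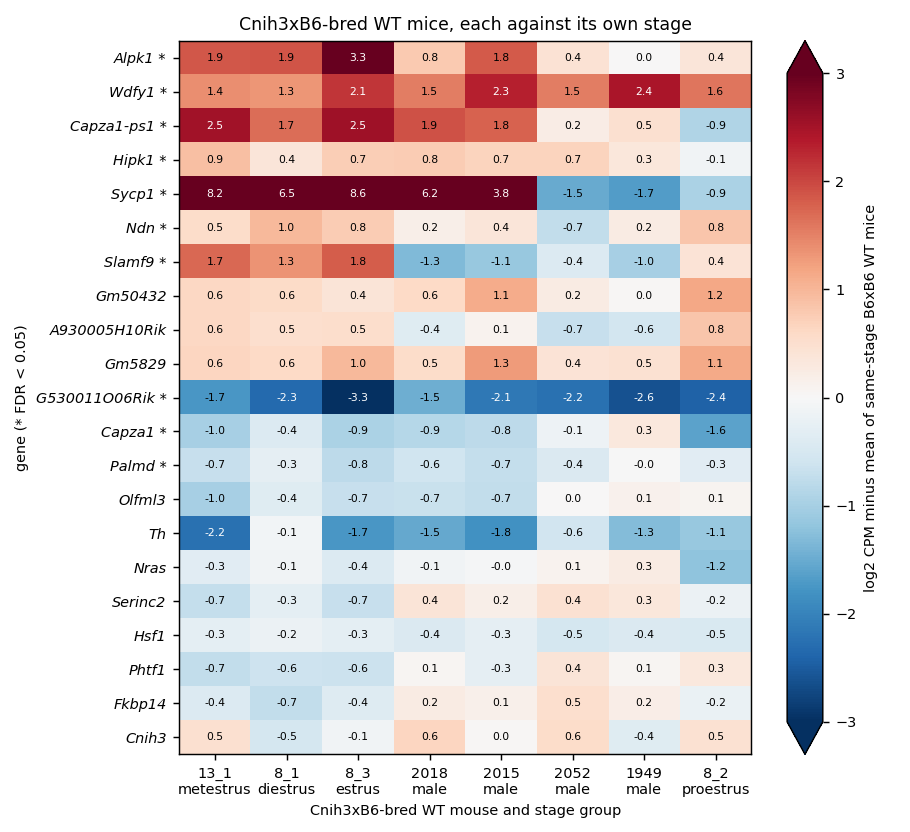
Level of the named genes in each of the 8 Cnih3 x B6 mice minus the mean of the B6 x B6 mice of the same stage (log2 CPM; colours end at -3 and 3). The columns 13_1, 8_1, 8_3, 2018 and 2015 show high Sycp1 (3.83 to 8.55) and Capza1-ps1 (1.67 to 2.53), whereas Wdfy1 (1.33 to 2.44) and G530011O06Rik (-3.29 to -1.46) moved the same way in all 8 columns.

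Other genes of the same stretch of chromosome 3 also had small p values. Of the 198 genes tested that start between 100 and 130 Mb, 20 had an unadjusted p under 0.01 (10.1%), against 253 of the other 15970 genes (1.58%) and 1.69% of all genes. This window was chosen after the values were seen and carries no test. Of these 20 genes 11 were higher and 9 lower in Cnih3 x B6 mice, so the stretch held genes of both directions. Olfml3, a secreted olfactomedin-like protein (log2 FC -0.64 ± 0.14, FDR = 0.179), Nras, a small GTPase of the Ras family (-0.34 ± 0.08, FDR = 0.272), Phtf1, a membrane protein best known from testis (-0.51 ± 0.13, FDR = 0.339), and the non-coding A930005H10Rik (0.52 ± 0.12, FDR = 0.185) were among those that did not pass. In Olfml3 the mice 13_1, 8_3, 2015 and 2018, at 9.44, 12.2, 12.4 and 13.3 CPM, were again those below every B6 x B6 mouse (15.8 to 25.8 CPM). Over the 16168 genes tested, exactly 4 of the 8 lay below all 16 in 82 genes, and 5 or more in 0.254% of genes. Without library 8_2 the window held 20 genes with p under 0.01 (10.1%) and the rest of the genome 1.12%. Without 8_1, 8_2 and 8_3 the window held 14 (7.07%) and the rest of the genome 4.83%.

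**Figure D3:**
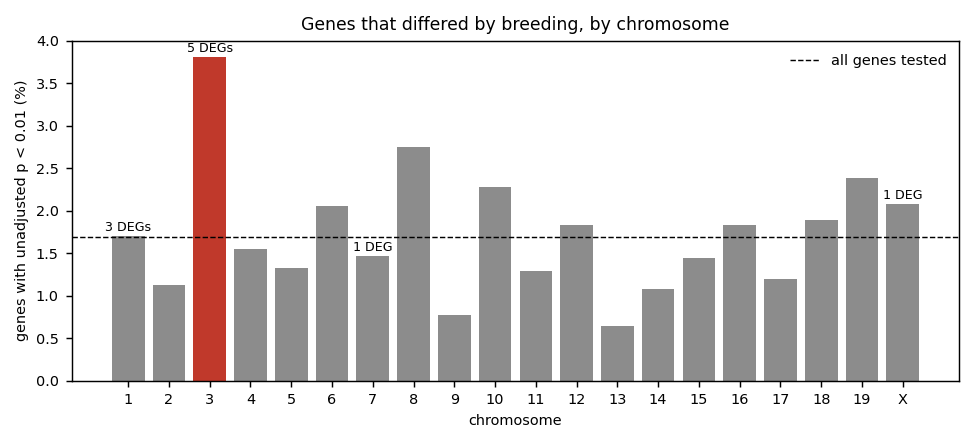
Share of the genes tested on each chromosome with an unadjusted p under 0.01, with the number of DEGs above the bar; the dashed line is the share over all genes (1.69%). Chromosome 3 had 31 of 814 genes (3.81%), and the other chromosomes between 0.644% and 2.75%.

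**Figure D4:**
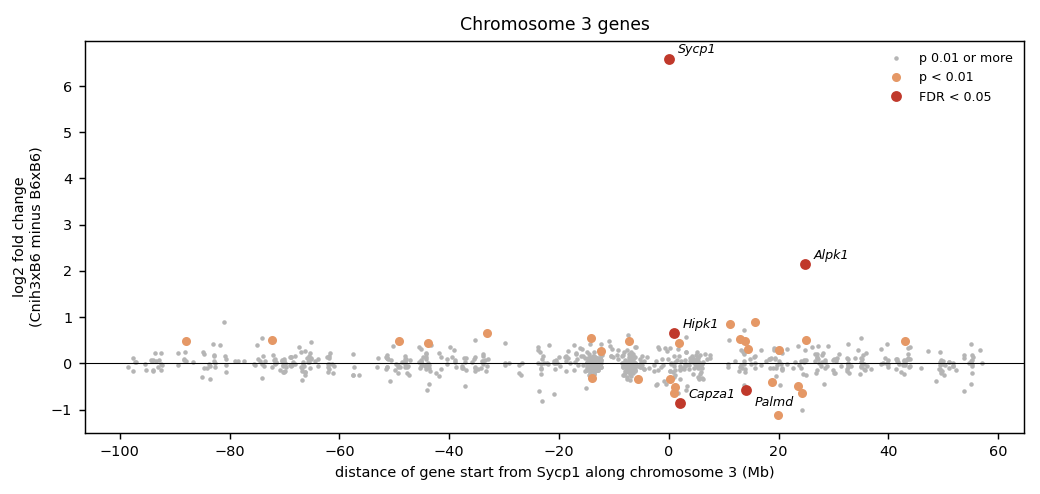
The log2 FC of every chromosome 3 gene tested against the distance of its start from that of Sycp1 in Mb. The 5 DEGs start between 0 and 24.85 Mb from Sycp1, and 20 of the 31 genes with p under 0.01 lie in the stretch between 100 and 130 Mb.

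Wdfy1 (chromosome 1, 79702262 to 79776143, minus strand) encodes an endosomal protein with a FYVE domain that takes part in Toll-like receptor signalling. It was above the mean of its stage in all 8 Cnih3 x B6 mice, that mean being 19_1 alone for the 4 males. The Cnih3 x B6 mice ran from 47.6 to 89.95 CPM (1949 highest, 2018 and 2052 lowest, median 70.2), and the B6 x B6 mice from 16.3 to 56.5 CPM (median 19.3). In the B6 x B6 group 15 of 16 mice were at or below 23.4 CPM, and the mouse at 56.5 CPM, a diestrus female, was the only one above. Wdfy1 had a log2 FC of 1.49 ± 0.17 (FDR = 2.00e-05), and the call was lost with 52 mice in the fit (FDR = 0.154). Wdfy1 was 1 of 10 genes listed for known differences between the C57BL/6J and C57BL/6N substrains, of which 5 could be tested. None of the other 4 passed: Fgfbp3, a carrier of fibroblast growth factors, had a log2 FC of 0.54 ± 0.21 (FDR = 0.625), Gabra2, a GABA-A receptor subunit, 0.30 ± 0.13 (FDR = 0.654), Ide, the insulin-degrading enzyme, 0.31 ± 0.18 (FDR = 0.717), and Cyfip2, an actin regulator, -0.03 ± 0.06 (FDR = 0.921). Gabra2 was above all 16 B6 x B6 mice (72.9 to 128.5 CPM) in 5 of the 8 Cnih3 x B6 mice, at 153.9 CPM in 8_2, 163.7 in 2015, 175.9 in 8_1, 207.4 in 1949 and 217.6 in 2052. The other 3 had 96.7 to 116.9 CPM, within the B6 x B6 range. Over the genes tested, 5 or more of the 8 lay above all 16 in 0.118% of genes. Of the 8, 3 lay above and 1 below all 16 for Fgfbp3, 1 above for Ide and 2 below for Cyfip2. Nnt, Entpd4, Entpd4b, Crb1 and Nlrp12 were not among the genes tested. Mrpl44, a mitochondrial ribosomal protein gene that overlaps Wdfy1 on the opposite strand, was at -0.09 (FDR = 0.825), and St7l, which overlaps Capza1 in the same way, at -0.13 (FDR = 0.761). The median log2 FC of the 5 tested was 0.31, beside 0.00 over all genes.

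G530011O06Rik (X chromosome, 169975043 to 169978917, minus strand) is an uncharacterised non-coding RNA that overlaps Mid1 on the opposite strand. It was lower in every Cnih3 x B6 mouse than the mean of its stage. The Cnih3 x B6 mice ran from 0.362 to 1.69 CPM (median 0.871) and the B6 x B6 mice from 1.39 to 4.66 CPM (median 3.48), and 7 of 8 lay below all 16. This was a log2 FC of -2.26 ± 0.33 (FDR = 0.000586), which did not pass without 8_1, 8_2 and 8_3 (-1.89, FDR = 0.172). RefSeq places a second copy of the gene on the Y chromosome. The 300 bases around the start of each copy share 292 of 296 aligned bases (98.6%). Most of these bases lie before the start, and the transcripts of the copies were not compared. Whether reads of the copies can be told apart was therefore not tested. With 548, 549 and 569 counted as Cnih3 x B6 mice the gene did not pass (log2 FC -1.51, FDR = 0.429). The level in these 3 mice was 2.80 to 3.88 CPM, within the range of the B6 x B6 mice.

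Ndn (chromosome 7, 62346569 to 62350262, plus strand) encodes necdin, a growth suppressor of neurons that is expressed from the paternal allele. It was at 405.6 CPM in 8_2, 387.5 in 2015, 365.6 in 8_1, 361.3 in 1949, 344.2 in 2018, 334.8 in 8_3, 331.3 in 13_1 and 181.8 in 2052. The B6 x B6 mice ran from 172.3 to 304.8 CPM (median 217.1), and the highest of them was the male 19_1. All but 2052 lay above every B6 x B6 mouse. The log2 FC was 0.70 ± 0.11 (FDR = 0.00125). Neither limma without quality weights (FDR = 0.102) nor the fit without 8_1, 8_2 and 8_3 (log2 FC 0.30, FDR = 0.410) nor that with the pseudogene share as a covariate (0.56, FDR = 0.233) called Ndn.

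Slamf9 (chromosome 1, 172475358 to 172478575, plus strand) encodes a receptor of the SLAM family found on myeloid cells, and its call was lost in more of the fits with 1 mouse left out than that of any other DEG. The 4 Cnih3 x B6 females had 1.66 CPM (13_1), 1.33 (8_3), 1.25 (8_2) and 1.10 (8_1), and the 4 males 0.393 to 0.750 CPM, against 0.144 to 1.16 CPM (median 0.511) in the B6 x B6 mice. Counts per library were 17 to 68 and 7 to 60, and the groups overlapped. The log2 FC was 1.41 ± 0.27 (FDR = 0.0251), and the call was lost without any one of 13_1, 2_2, 2018, 2052 or 5_1 was left out (FDR = 0.0552 to 0.137).

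The difference by breeding was also compared between sexes, and this comparison rests on the level of 1 B6 x B6 male. The interaction of breeding with sex passed for 1755 genes (10.9%), 533 with a more positive and 1222 with a more negative log2 FC in males. edgeR called 165 genes, and limma without quality weights 275. Leaving out 2018, 2052 or 8_1 left 3, 7 and 8 genes, and leaving out 13_1, 1949 or 2015 gave 2964, 3148 and 2687. Without 19_1 the interaction cannot be estimated, and the test assumes that this lone mouse varies like the other groups. The 3 genes with the smallest FDR were Gm14236, Mir6236 and Gm37194. In Mir6236, for example, the 4 Cnih3 x B6 males had 814.4 to 1023 CPM and the B6 x B6 females at most 1168 CPM, while 19_1 had 3320 CPM. Mouse 19_1 likewise held the highest level of Gm14236 (40.7 CPM, next 12.7 in the B6 x B6 group) and of Gm37194 (51.8 CPM, next 17.0), and library 8_2 was the highest Cnih3 x B6 library in all 3. Whether these counts are a property of mouse 19_1 or of its library cannot be told apart.

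Of the 10 DEGs, 2 passed the interaction test, and both calls depended on the fit. Ndn had a log2 FC of 0.80 in females and 0.03 in males (difference -0.77 ± 0.25, FDR = 0.0464), and Slamf9 1.47 in females and -1.08 in males (difference -2.55 ± 0.59, FDR = 0.0137). Neither was called by edgeR (FDR = 0.113 and 0.0503) or without 2018, 2052 or 8_1, and the Ndn call was lost in 12 of the 23 fits with 1 mouse left out. The other 8 had an interaction FDR of 0.209 or more. In females alone 9 of the 10 were called, Palmd being lost (FDR = 0.0616). Males alone set 4 mice against 1, so a lack of calls there cannot show whether males differ from females. Fitted without quality weights, none of the 10 was called in males, with log2 FCs of 1.95 for Wdfy1 (FDR = 0.0997) and -2.12 for G530011O06Rik (FDR = 0.129).

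With all 24 mice and no added covariate, pseudogenes held a larger share of small p values than protein-coding genes. Nearly all of these had higher levels in Cnih3 x B6 mice. Of 1322 pseudogenes tested 134 had an unadjusted p under 0.01 (10.1%), 133 of them higher, against 119 of 13482 protein-coding genes (0.883%) and 1.69% of all genes. The median log2 FC of the pseudogenes was 0.27. Capza1-ps1 was the only pseudogene among the DEGs, and the named pseudogenes Gm50432 (0.64 ± 0.14, FDR = 0.105) and Gm5829 (0.82 ± 0.19, FDR = 0.248) did not pass. The share of pseudogene counts per library was 0.803% to 1.36% in Cnih3 x B6 mice (highest in 8_2 and 2015) and 0.812% to 1.34% in B6 x B6 mice. Without 8_2, 85 pseudogenes (6.43%) were under that p. Without 8_1, 8_2 and 8_3 the number was 25 (1.89%), a smaller share than that of protein-coding genes (735, 5.45%). With the library share as a covariate it was 14 (1.06%), against 274 protein-coding genes (2.03%). That covariate sums the counts of the pseudogenes themselves, so it takes up by construction a shift the pseudogenes have in common. Many pseudogenes are copies of ribosomal protein genes. Of 83 ribosomal protein genes, 75 had a positive log2 FC (median 0.14, none called). At p under 0.05 were 11 of the 83, beside 7.29% of all genes. Without 8_2, 65 of the 83 were positive (median 0.08) and 1 had p under 0.05. Without 8_2 and 19_1, 82 were positive (median 0.14) and 6 had p under 0.05. With the library share of pseudogene counts as a covariate, 38 were positive (median -0.007) and 2 had p under 0.05. Without 8_1, 8_2 and 8_3, a fit that compares breeding only in metestrus and in males, the median was -0.17, with 7 positive and 76 negative.

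Cnih3 itself did not pass the test. It was at 29.6 to 59.3 CPM in the Cnih3 x B6 mice and 21.6 to 62.5 CPM in the B6 x B6 mice (log2 FC 0.08 ± 0.17, FDR = 0.938). Its sign turned in 6 of the alternative fits, none of which called it. Of 16 AMPA receptor subunit and auxiliary protein genes none was called, 11 had a positive log2 FC and the median was 0.07. Cacng4, a TARP auxiliary subunit that guides AMPA receptors to the synapse, had the smallest p (log2 FC 0.33 ± 0.11, FDR = 0.536), followed by Cnih2, the other hippocampal cornichon (0.27 ± 0.15, FDR = 0.698). Of 59 protein-coding genes tested within 5 Mb of Cnih3 none was called and the median was -0.01. The smallest p values there were those of Bpnt1, a nucleotidase (-0.16 ± 0.06, FDR = 0.634), and Zbtb18, a transcriptional repressor (0.24 ± 0.10, FDR = 0.653).

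None of the lists of cell type markers held a call. The summed level of 7 CA1 markers was 302 to 437 CPM in Cnih3 x B6 mice and 313 to 426 CPM in B6 x B6 mice, and that of 8 dentate granule cell markers 245 to 341 and 257 to 374 CPM, so the tissue expressed both hippocampal sets in every mouse. The medians of the dentate, CA1, CA2 and CA3 lists lay between 0.02 and 0.09. Genes of neighbouring tissue were present in some mice of both groups: choroid plexus markers summed to 32.01 to 1034 CPM and 22.7 to 1348 CPM, and pituitary markers to 6.53 to 124.8 and 7.19 to 213.7 CPM, of which 3 of 8 were tested. With the choroid plexus level as a covariate the same 10 genes were called. Of 7 thalamus markers 4 were lower (median -0.27), with Rgs16, a regulator of G protein signalling, at -0.27 ± 0.12 (FDR = 0.673). None of the 5 sex-linked genes listed passed with stage group in the fit, with log2 FCs between -0.03 (Xist) and 0.44 (Kdm5d). Stage group already separates males from females, so this fit does not check the labelled sex.

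Among lists of cell states, immediate early genes, which neurons switch on within minutes of activity, stood furthest below 0. Over all genes tested, 7.29% had p under 0.05, and 8086 had a positive and 8082 a negative log2 FC. Of the 12 immediate early genes, 10 had a negative log2 FC (median -0.36), 6 had p under 0.05 and none was called. Fosb (-0.43 ± 0.15, FDR = 0.580) and Nr4a1 (-0.37 ± 0.14, FDR = 0.587) had the smallest p values, and Egr2 (-1.07 ± 0.44, FDR = 0.649) and Npas4 (-0.74 ± 0.33, FDR = 0.668) the lowest log2 FCs. Their summed level was 363 to 645.9 CPM in Cnih3 x B6 mice and 451.9 to 753.5 CPM in B6 x B6 mice, and the groups overlapped. Without 8_1, 8_2 and 8_3, 8 of 12 were negative and none had p under 0.05. Of 14 clock genes 12 were negative (median -0.08), with Nr1d1, the repressor REV-ERB alpha, lowest in p (-0.21 ± 0.09, FDR = 0.668). Mitochondrial messenger RNA had 10 of 13 positive (median 0.08), led by mt-Co2 (0.43 ± 0.19, FDR = 0.666) and mt-Co3 (0.36 ± 0.16, FDR = 0.668). Nuclear long non-coding RNA had 8 of 9 negative (median -0.16), with Rian at -0.22 ± 0.08 (FDR = 0.618) and Malat1 the only positive member (0.25 ± 0.19, FDR = 0.770).

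**Figure D5:**
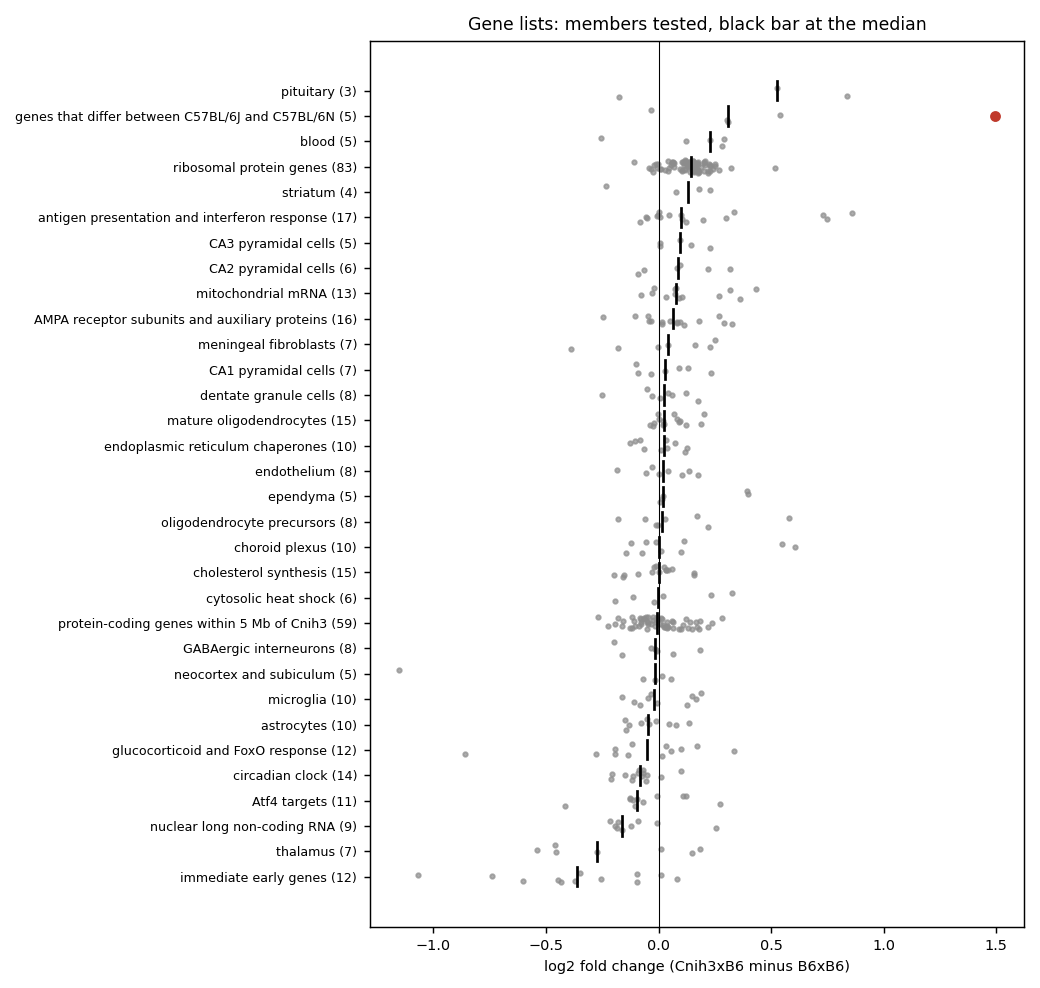
The log2 FC of every list member tested (points) and the median of each list (black bar), with the number tested in parentheses; the red point is the only call, Wdfy1. The medians ran from -0.36 (immediate early genes) to 0.53 (3 pituitary genes).

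Of the remaining named genes, Th, which encodes tyrosine hydroxylase of dopamine and noradrenaline synthesis, had a log2 FC of -1.49 ± 0.34 and did not pass (FDR = 0.185). It was at 0.262 to 1.39 CPM in Cnih3 x B6 mice and 0.330 to 2.07 CPM in B6 x B6 mice, the highest being the male 19_1. Hsf1, the main heat shock transcription factor, was below the mean of its stage in all 8 Cnih3 x B6 mice (log2 FC -0.31 ± 0.08, FDR = 0.326). For the 4 males that mean was 19_1 alone. Serinc2 (-0.52 ± 0.13, FDR = 0.294) and Fkbp14, an endoplasmic reticulum prolyl isomerase (-0.42 ± 0.12, FDR = 0.419), were lower in the 4 Cnih3 x B6 females than the mean of their stage and higher in the 4 males than in 19_1.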

How the data were processed

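The authors deposited raw counts of uniquely aligned reads per Ensembl gene (STAR 2.7.9a, featureCounts 2.0.3 and GRCm38 per the labels), without normalization, for 1 library per mouse. Other deposited tables were not used, and 1 count column outside the sample list was left out. Stage and age come from the labels, and breeding from the study's sample table.

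Genes above 1 CPM in 10 or more of the 55 libraries were tested, except 5 ribosomal RNA genes (16168 genes). TMM factors came from edgeR 4.0.16 and the linear model, with stage group and breeding as terms and voom quality weights, from limma 3.58.1 (R 4.3.3). FDR was taken over all genes by the Benjamini and Hochberg method. A breeding by sex term gave the interaction. CPM are TMM-scaled. Positions are from GENCODE M21. On counts simulated for the 24-mouse comparison with 200 of 16168 genes changed, limma recovered 40% at a log2 FC of 0.5 and 83% at 1, with 1 false call. For the simulated interaction it recovered 0% and 11%. Both simulations drew noise for each gene separately, without effects of stage or library quality. Recovery and false calls in the real libraries may therefore differ. Alternatives were edgeR, DESeq2 1.42.0, other weights, filters, covariates and subsets of mice.

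The groups, lists and tests were chosen with earlier results of these data known. Named genes were Cnih3, the DEGs, the genes of smallest p up to 10 in each direction, the 3 of smallest interaction FDR, the substrain and sex lists, and from each other list the 2 genes of smallest p, of which examples are given. The labels do not say that mice came from separate litters, so p values measure the spread between these mice. No 2 libraries correlated above 0.991. Bulk tissue does not tell fewer cells of a type from less RNA per cell.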

Additional observations from a re-analysis of the deposited data

Results flagged for a closer look

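Among the 8 Cnih3 x B6 mice, 1 mouse stood far from the rest in 4 of the genes and measures checked, by the gap to its nearest neighbour divided by the range of the 8. These were Ndn (0.748, mouse 2052 low), Gm14236 (0.594, library 8_2 high), Mir6236 (0.785, 8_2 high) and Gm37194 (0.876, 8_2 high). Chance alone gives such a gap in about 1 group in 20 for each item checked, and many more items were checked than these 4. The levels were not adjusted for stage or sex. Gm14236, Mir6236 and Gm37194 were named for their interaction FDR, and the mouse was 8_2 in each.

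The interaction of breeding with sex passed for 8 of the named genes. The log2 FC in males minus that in females was -0.77 for Ndn, -2.55 for Slamf9, -0.97 for A930005H10Rik, 0.95 for Serinc2, 0.83 for Fkbp14, -2.91 for Gm14236, -2.04 for Mir6236 and -2.36 for Gm37194. The male side of each rests on the single B6 x B6 male, 19_1, so its spread was not measured. Gm14236, Mir6236 and Gm37194 were named for their interaction FDR, and passed in all 23 fits with another mouse left out (FDR at most 0.00361, 0.0109 and 0.0142), each of which keeps 19_1. The other 5 did not pass without 2018, 2052 or 8_1, and edgeR called none of them (FDR = 0.0503 to 0.113).

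The 31 mice outside the comparison (28 KO mice and 548, 549 and 569) also had levels of the DEGs beyond the whole range of the 16 B6 x B6 mice. Above that range were 18 of the 31 for Alpk1, 21 for Wdfy1, 17 for Capza1-ps1, 16 for Hipk1, 15 for Sycp1, 23 for Ndn and 6 for Slamf9. Below it were 16 for G530011O06Rik, 9 for Capza1 and 8 for Palmd. On the opposite side lay 3 mice for Palmd and 1 each for G530011O06Rik, Alpk1, Wdfy1 and Hipk1. Over all genes tested, 6 or more of the 31 lay above the range in 9.35% of genes and 15 or more in 0.315%, and 8 or more lay below it in 7.48%, 9 or more in 5.02% and 16 or more in 0.241%. These counts are set against the same 16 mice as the comparison itself, and they were not tested.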

How the results depend on the processing

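With single mice left out the number of DEGs was 8 to 49, the most without 8_3, and that of interaction genes 3 to 3148. The count of 10 became 22 with DESeq2 (9 of them among the 10), 3 in limma without quality weights, 4 with all 52 mice in the fit, 5 in mice of 14 weeks or more, 2 without 8_1, 8_2 and 8_3 (Wdfy1 and Hipk1), and 6 with the pseudogene share as a covariate, an alternative added after the data were seen. Age, choroid plexus or oligodendrocyte level as a covariate, DESeq2 size factors, or a random block on the leading digits of the mouse number each gave 10 genes, the same 10. The interaction count of 1755 became 165 with edgeR, 1150 with no filter on low counts and 275 without quality weights, which was also added later. Without 8_2 and 19_1, added after the data were seen, 9 of the 10 were called, Capza1 being lost (FDR = 0.0514). Over the 18 other fits Wdfy1 passed in 16, Alpk1 and G530011O06Rik in 15, Capza1-ps1, Hipk1, Sycp1 and Ndn in 14, Capza1 in 9, and Palmd and Slamf9 in 8. The fit without 8_1, 8_2 and 8_3 compares breeding only in metestrus and in males. That on mice of 14 weeks or more compares it only through 8_1, 8_2 and 8_3. The causes were not tested. The pseudogene covariate holds the pseudogenes' own counts.

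Signs turned for Slamf9 in males only (-0.97), for the second principal component with genes scaled to unit variance (0.0155), and for Cnih3 with 548, 549 and 569 added (-0.004428), in mice of 14 weeks or more (-0.25), in females only (-0.0285), without 8_2 and 19_1 (-0.0616), without 13_1 (-0.143) and without 19_1 (-0.029). Over all mice left out singly, Cnih3 ran from -0.143 to 0.335. Males only were fitted without quality weights. No paired analysis was possible because the labels carry no replicate numbers and mice were numbered in accession order within a group. The design has 1 Cnih3 x B6 female per stage and 1 B6 x B6 male. The simulated interaction found 11% of genes with a log2 FC of 1, with 200 genes changed and noise drawn for each gene separately. In the data, genes with smaller differences were called, such as Ndn (-0.77). The simulated share therefore cannot say how many differences between the sexes were missed in these data.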

Other observations

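Levels beyond the B6 x B6 range were also counted mouse by mouse. Over the 39 mice other than the 16 B6 x B6 mice (8 WT of Cnih3 x B6 breeding, 548, 549, 569 and 28 KO), 20 had more Sycp1 than any B6 x B6 mouse, and all 20 of them also had more Capza1-ps1, a gene annotated on chromosome 1, than any B6 x B6 mouse, of 22 mice with high Capza1-ps1. Of the 20, 18 also lay above the B6 x B6 range for Alpk1 (22 mice in all) and 18 for Hipk1 (21 in all), 12 lay below it for Capza1 (14 in all) and 12 for Palmd (15 in all). For Wdfy1 the number was 13 (26 in all), for Ndn 15 (30 in all) and for G530011O06Rik 10 (23 in all). The genes were chosen on a comparison with the same 16 mice, so these counts are a description. Over all genes tested, 12 or more of the 20 mice lay above the B6 x B6 range in 0.099% of genes and below it in 0.111%, 18 or more above it in 0.0247%, and all 20 above it in 2 genes, Sycp1 and Capza1-ps1. In the KO mice Sycp1 ran from 0 to 318 counts, with 12 of 28 at 0 and 12 at 10 or more.

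The Capza1-ps1 share of the summed Capza1 and Capza1-ps1 level was 28.6%, 31.6% and 51.9% at the lowest, middle and highest of 548, 549 and 569, and 6.55% to 54.4% in the KO mice (median 20.9%). The summed level there was 27.4 to 30.8 CPM and 17.4 to 45.5 CPM.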
